A study of Rattus norvegicus with 40 samples.

Results

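The replicate 2 arrays of INS-1E, a rat insulinoma line that models the insulin-producing beta cell, were compared with the replicate 1 arrays of the same condition and time. Groups labelled Cytokine received IL-1 (human, recombinant, at 10 units/ml) together with IFN-γ (murine, recombinant, at 100 units/ml), and those labelled Control received neither. Every group with both replicate numbers was used: Cytokine at 0, 1, 2, 4, 6, 8, 12, 24, 36, 48, 60 and 72 h, and Control at 0 and 1 h. That gave 14 groups and 28 of the 40 arrays of the series, 14 of replicate 2 and 14 of replicate 1. Control 0h, Control 1h and Cytokine 0h had met no cytokine and are called unexposed here, and the other 11 groups had been exposed for 1 to 72 h. The other 12 arrays, every control after 1 h and Cytokine 10h, are replicate 1 alone.

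The series' text speaks of 2 occasions. The labels do not say that a replicate number marks an occasion, nor that the replicates were separate cultures. The p-values below therefore measure how steadily replicate 2 differed from replicate 1 over groups that may share 1 series of cultures, and not how further cultures would differ. The sample records give the line as INS1, 1 label field names the agents as IFN-beta and IFN-gamma, and the extraction text mentions islets.

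Beta cells store insulin in dense core granules and release it when glucose metabolism closes the KATP channel, built from Kcnj11 and Abcc8. IFN-γ acts through the transcription factor IRF1, among others, on genes of antiviral defence and antigen presentation, while IL-1 acts through NF-kB on genes such as Nos2, the inducible nitric oxide synthase. Promoters of IFN-γ-responsive genes can carry a palindrome known as GAS, and IRF factors bind interferon-stimulated response elements (ISRE). NRF2 binds antioxidant response elements (ARE) and drives genes of glutathione metabolism and detoxification.

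Values are log2 signal of Affymetrix Rat ST arrays, so a difference of 1 is 2-fold. The array medians ran between 6.57 and 6.61 in replicate 2 and between 6.54 and 6.62 in replicate 1, and the number of arrays limits the precision. A gene was called at an adjusted p under 0.05 (limma, Benjamini-Hochberg over 16587 genes), and ± gives a standard error unless SD is written. The line carried its defining markers: Ins1 averaged 14.12 on replicate 2 arrays and 14.26 on replicate 1 arrays, and Slc2a2, the glucose transporter GLUT2, averaged 12.50 on replicate 2 and 12.43 on replicate 1. The mean of 23 leukocyte markers ran from 4.60 to 4.85 on replicate 2 and from 4.68 to 4.89 on replicate 1, around the lower quartile of signals, which lay between 4.83 and 5.10. Over 26 endothelial, stromal, acinar, duct and neural markers it ran from 5.44 to 5.67 on replicate 2 and from 5.47 to 5.73 on replicate 1. In the leukocyte list none was higher in replicate 2 and 3 were lower (Tyrobp -0.24, Spi1 -0.19, Csf1r -0.17), and in the other list none was higher and 2 were lower, where 9.43% of all genes were lower. Their part in the results was not tested, and in such bulk samples fewer cells of a type and less RNA per cell cannot be told apart.

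Promoter sequences of some of the genes that follow come first, since interferon and antioxidant genes were among the groups lower in replicate 2. The windows, from RefSeq on the rat build GRCr8, hold 250 bases before and 50 after the start. Of 13 interferon-responsive genes looked up, 8 had a window (Irf1, Socs1, Dtx3l, Gbp1, Gbp2, Gbp5, Mx1 and Oasl2). GAS was searched as TTCNNNGAA and the ISRE core as GAAANNGAA, on both strands. GAS stood in 2 of the 8, Irf1 and Socs1, and the ISRE core in 6, all but Irf1 and Mx1. Over all 27457 windows 8.68% held GAS and 9.50% held the ISRE core, and of the 38 listed interferon targets with a window 12 and 26 did. Shown are Irf1, the early factor (chr10:38417685-38417984, plus strand, GAS first base at -142), and the GTPases Gbp2 (chr2:234005477-234005776, plus strand, ISRE core at -30) and Gbp5 (chr2:233910749-233911048, plus strand, ISRE core at -159 and -55). Capitals mark GAS in Irf1 and the ISRE core in both Gbp genes, where it reads on the opposite strand.
Irf1: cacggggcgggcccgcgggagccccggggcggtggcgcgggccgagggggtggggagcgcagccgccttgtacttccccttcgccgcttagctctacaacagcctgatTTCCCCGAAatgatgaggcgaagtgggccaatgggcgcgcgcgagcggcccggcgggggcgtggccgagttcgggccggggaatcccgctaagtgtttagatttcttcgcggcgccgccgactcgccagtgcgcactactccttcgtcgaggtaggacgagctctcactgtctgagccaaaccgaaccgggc
Gbp2: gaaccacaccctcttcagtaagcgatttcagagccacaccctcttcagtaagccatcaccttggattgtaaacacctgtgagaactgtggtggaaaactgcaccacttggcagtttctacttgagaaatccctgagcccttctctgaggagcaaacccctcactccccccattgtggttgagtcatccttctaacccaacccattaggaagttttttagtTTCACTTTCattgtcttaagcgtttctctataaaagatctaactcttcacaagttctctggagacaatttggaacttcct
Gbp5: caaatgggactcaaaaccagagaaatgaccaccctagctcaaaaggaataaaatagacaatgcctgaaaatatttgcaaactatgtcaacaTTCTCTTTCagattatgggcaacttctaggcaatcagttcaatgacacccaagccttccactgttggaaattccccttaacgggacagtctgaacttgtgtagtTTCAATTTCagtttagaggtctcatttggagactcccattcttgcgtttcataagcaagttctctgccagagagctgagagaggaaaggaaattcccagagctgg

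The ARE core was searched as TGACNNNGC on both strands in Nqo1, Gstp1, Gsta1, Srxn1, Txnrd1 and Gclc, which all had a window. It stood in 2 of these 6, Gstp1 and Gsta1, in 12.2% of all windows and in 9 of the 29 listed antioxidant genes with one. The window of Gstp1, a glutathione transferase lower in replicate 2 in every group, is shown with the core in capitals (chr1:210769656-210769955, minus strand, first base at -61). These matches describe letters in a window and not binding.
Gstp1: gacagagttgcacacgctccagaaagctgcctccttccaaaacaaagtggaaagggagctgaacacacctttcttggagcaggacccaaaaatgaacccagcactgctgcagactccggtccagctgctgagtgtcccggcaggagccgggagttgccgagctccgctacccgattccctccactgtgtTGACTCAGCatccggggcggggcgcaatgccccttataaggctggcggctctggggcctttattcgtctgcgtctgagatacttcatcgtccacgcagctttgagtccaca

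Over the 14 groups, 1422 genes were higher in replicate 2 (8.57%) and 1564 were lower (9.43%). The differences were small: the median size over the called genes was 0.20 on the log2 scale, or 1.15-fold, 32 exceeded 0.5, and 1, Car5b, reached 2-fold. Of the genes called higher 205 were higher in all 14 groups, and of those called lower 156 were lower in all 14. Groups of condition and time held 68.9% of the variance and the arrays within groups 31.1%, of which 23.6% was the mean replicate difference. The calls moved with signal. In the highest tertile of mean level 16.0% of genes passed as higher and 9.04% as lower, in the middle tertile 8.95% and 10.6%, and in the lowest 0.760% and 8.65%. The median difference over all genes was -0.02. Without the Cytokine 4h and 6h pairs, left out after they were seen to stand apart from the others, 1669 genes were higher and 1827 lower.

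The 14 pairs did not carry the difference equally. Across genes, the differences of the Cytokine 4h pair correlated at 0.04 with the mean of the other 13 pairs and those of the Cytokine 6h pair at 0.15, while the other 12 pairs ran from 0.30 (Control 0h) to 0.52 (Cytokine 1h). Of the genes called without the pair in question, 61.1% had the same sign in it at Cytokine 4h, 66.4% at Control 0h and 69.2% at Cytokine 6h, while in the other 11 pairs the share ran up to 88.8%, at Cytokine 1h. The 4h and 6h pairs correlated with each other at 0.35, and the 4h pair with the 12 others at a median of -0.01. In the Control 1h pair the differences rose with signal, with a correlation of 0.42. Genes share each array and are not independent, so these are descriptions.

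**Figure D1:**
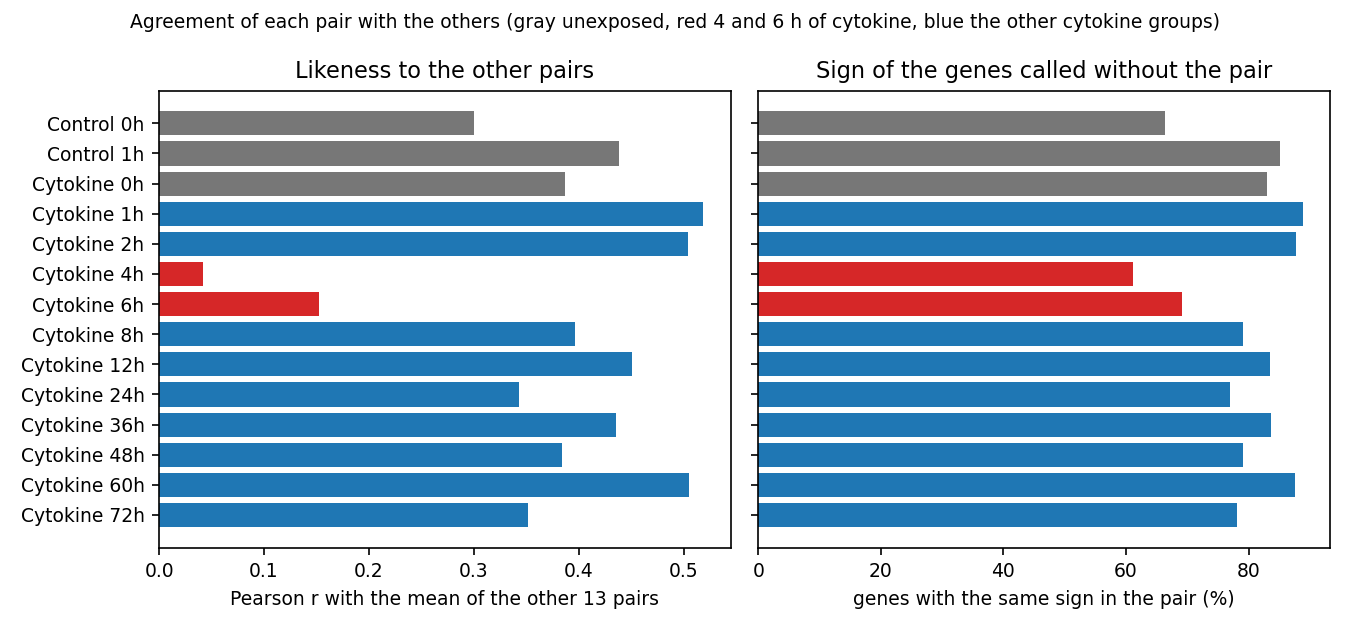
Left, Pearson r across 16587 genes between the replicate 2 minus replicate 1 differences of each pair and the mean of the other 13 pairs. Right, the percentage of genes called without the pair that had the same sign in it. The Cytokine 4h and 6h bars are the shortest on the left, at 0.04 and 0.15.

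The genes with the largest difference toward replicate 2 were a mixed group of membrane, secreted and metabolic proteins. F3, tissue factor, the cell-surface starter of coagulation, had a lowest, median and highest value of 7.83, 8.61 and 9.14 on replicate 2 arrays, against 7.47, 7.82 and 8.07 on replicate 1 arrays. It was higher in replicate 2 in 14 of 14 groups, by 0.81 ± 0.07 (1.75-fold, limma adjusted p = 2.43e-06). Tmem100, a transmembrane protein, had 6.52, 6.95 and 8.21 on replicate 2 and 5.29, 6.19 and 7.53 on replicate 1, a difference of 0.85 ± 0.10 (adjusted p = 4.82e-05, higher in 14 of 14). The ranges of both genes overlapped between the replicates although the pairs did not cross.

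Car5b, a mitochondrial carbonic anhydrase, had the largest mean difference, 1.12 ± 0.18 (2.17-fold, adjusted p = 0.000638, higher in 14 of 14). Its values at 24, 36, 48, 60 and 72 h of cytokine were 6.45, 7.20, 7.69, 8.39 and 9.39 in replicate 2, against 6.01, 5.79, 6.12, 6.20 and 6.13 in replicate 1. At 4 and 6 h they were 6.84 and 6.80 in replicate 2 and 6.17 and 6.55 in replicate 1. P2ry1, a purinergic receptor that responds to ADP, had a lowest, median and highest of 6.54, 7.68 and 8.18 in replicate 2 and 6.02, 6.77 and 7.54 in replicate 1, a difference of 0.77 ± 0.08 (adjusted p = 1.2e-05, higher in 14 of 14). Npy, neuropeptide Y, had 9.07, 9.87 and 10.93 in replicate 2 and 8.19, 9.67 and 10.36 in replicate 1, a difference of 0.60 ± 0.06 (adjusted p = 1.23e-05, higher in 13 of 14).

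The other genes of the leading 15 were Aadat, a kynurenine and aminoadipate aminotransferase (0.65), Vsnl1, the calcium sensor visinin-like 1 (0.64), Tm4sf4 (0.64), Cnnm1 (0.64), Atrx, a chromatin remodeller (0.62), Faim2 (0.62), Slc16a10, an aromatic amino acid transporter (0.61), Wnk3, a kinase that controls ion transport (0.61), Pde1c, a calmodulin-dependent phosphodiesterase (0.61), and Serpina1, alpha-1 antitrypsin (0.59). Atrx was uneven: at 4 and 6 h of cytokine it was at 6.68 and 7.25 in replicate 2 and 7.98 and 8.15 in replicate 1, and it was higher in replicate 2 in the other 12 groups (adjusted p = 0.0372). Serpina1 at 60 and 72 h was at 9.71 and 10.67 in replicate 2 and 7.84 and 8.78 in replicate 1 (adjusted p over the 14 groups 0.00727).

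**Figure D2:**
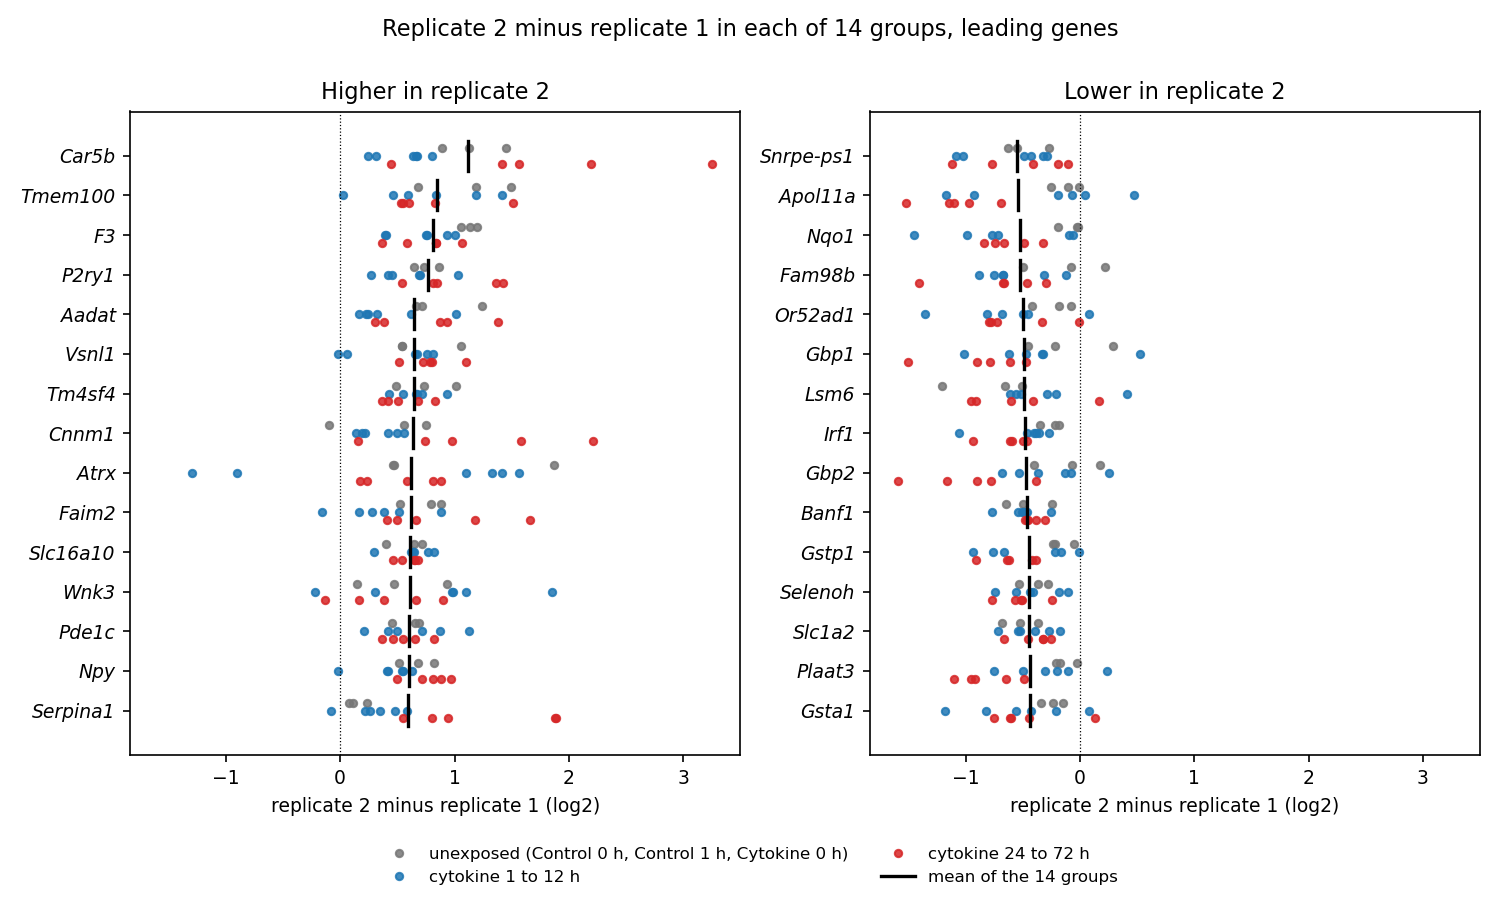
Replicate 2 minus replicate 1 on the log2 scale in each of the 14 groups (1 point a group) for the 15 called genes with the largest positive and the 15 with the largest negative mean difference among those of 1 sign in at least 12 groups. The black bar is the mean, 1.12 for Car5b and -0.55 for Snrpe-ps1.

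Of 29 measured genes of beta cell identity and function 16 were higher in replicate 2 and none lower, with a median of 0.20, and 27 had a positive difference. Of the 29, 25 lay in the highest tertile of signal, where 16.0% of all genes were higher. Abcc8, the sulfonylurea receptor subunit of the KATP channel, had 10.17, 10.46 and 11.32 in replicate 2 and 9.75, 10.15 and 10.73 in replicate 1, a difference of 0.38 ± 0.04 (1.30-fold, adjusted p = 1.57e-05, higher in 14 of 14). Kcnj11, the pore of the same channel, differed by 0.33 ± 0.08 (adjusted p = 0.0107). Nkx2-2, a transcription factor that keeps beta cell identity, averaged 8.44 in replicate 2 and 7.99 in replicate 1 (0.44 ± 0.06, adjusted p = 0.000209, higher in 13 of 14). Pcsk1, a convertase that cuts proinsulin, differed by 0.34 ± 0.05 (adjusted p = 0.000494) and Glp1r, the GLP-1 receptor, by 0.35 ± 0.06 (adjusted p = 0.000908).

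Among hormone genes, Ins2 was higher by 0.12 ± 0.04 (adjusted p = 0.0282, 13 of 14 groups) and Iapp, amylin, by 0.21 ± 0.04 (adjusted p = 0.00354, 13 of 14). Ins1 had a difference of -0.14 ± 0.05 that did not pass (adjusted p = 0.0651). These insulin genes are near copies, and what their probe sets share was not examined. Mafa, an activator of the insulin genes, was higher by 0.19 ± 0.06 (adjusted p = 0.0471), and Slc2a2 had 0.07 ± 0.03 (adjusted p = 0.144). Gcg, glucagon, was higher by 0.26 ± 0.08 (adjusted p = 0.0226, 11 of 14).

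Lists of secretion, lipid synthesis and the secretory pathway held mostly bright genes: 25 of 29 granule genes, 19 of 28 ion channels, 15 of 19 cholesterol genes, 16 of 25 fatty acid genes, 27 of 32 endoplasmic reticulum genes and 23 of 28 lysosome genes lay in the highest tertile, where 16.0% of all genes were higher. Among 29 genes of dense core granules and exocytosis 7 were higher and 1 lower, with Scg2 at 0.31, Cadps at 0.31 and Cplx1 at -0.24 (median 0.06), and among 28 ion channels 9 were higher and 1 lower (median 0.10). Of 19 genes of cholesterol synthesis and uptake 8 were higher and none lower, with a median of 0.13. The count was 4 without the Control 1h pair and 5 without the Cytokine 1h, 2h, 24h, 36h or 48h pair. At 8 and 12 h of cytokine 14 and 10 of the 19 lay below 0 (medians -0.18 and -0.02). In the other groups the median was above 0. Sqle, squalene epoxidase, averaged 9.86 in replicate 2 and 9.57 in replicate 1 (0.29 ± 0.04, adjusted p = 0.00011, higher in 14 of 14), and Insig1, which holds SREBP in the endoplasmic reticulum, differed by 0.28. Of 25 genes of fatty acid and triglyceride synthesis 8 were higher and 3 lower, with Scd2, a stearoyl-CoA desaturase, at 0.34 ± 0.04 (adjusted p = 2.01e-05). Of 32 chaperones and degradation factors of the endoplasmic reticulum 11 were higher and none lower (median 0.12). Without the Cytokine 1h or 2h pair 7 were higher. At 8 and 12 h of cytokine 22 and 19 of the 32 lay below 0 (medians -0.10 and -0.09), while the median was above 0 in the other groups. Dnajb9 (0.33) and Sec61b (0.29) were among the higher, while Hspa5, the main chaperone BiP, had 0.08 (limma adjusted p = 0.327).

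The counts in the next lists stand beside 8.57% of all genes higher and 9.43% lower. Of 28 lysosome and autophagy genes 10 were higher and 1, Sqstm1, lower. Of 20 cAMP and CREB targets 6 were higher and none lower, with 3 higher without the Control 1h pair or the Cytokine 1h, 8h, 60h or 72h pair: Crem, a cAMP-responsive transcription factor, had 7.24, 7.67 and 8.20 in replicate 2 and 7.01, 7.20 and 7.59 in replicate 1 (0.42 ± 0.05, adjusted p = 3.28e-05, higher in 14 of 14). Among 31 immediate early genes 6 were higher and 2 lower, with Egr1 at 0.23 (adjusted p = 0.042) and Fos at -0.18 (adjusted p = 0.115). Of 19 p53 targets 5 were higher, Cdkn1a among them (0.31), and 2 lower. Id2, an inhibitor of helix-loop-helix factors, was higher by 0.52, in a list of TGF beta, BMP and Notch targets where 5 of 31 were higher and 5 lower. Bcl2, which restrains apoptosis, was higher by 0.35, the 1 higher gene of 29 in its list, where 5 were lower.

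Antioxidant genes were among the lists with lower members. Of 36 measured genes of antioxidant defence and NRF2 targets 12 were lower in replicate 2 and 2 higher, with a median of -0.08. Over all genes 9.43% were lower and 8.57% higher. Nqo1, a quinone reductase, had 5.79, 7.39 and 7.99 in replicate 2 and 6.34, 7.67 and 8.94 in replicate 1, and was lower in 14 of 14 groups (-0.53 ± 0.10, adjusted p = 0.00178). At 1 and 2 h of cytokine it was at 7.48 and 7.40 in replicate 2 and 8.94 and 8.39 in replicate 1, while over the unexposed groups it differed by -0.08 (adjusted p = 0.858). Gstp1 differed by -0.45 ± 0.07 (adjusted p = 0.000705, lower in 14 of 14), Srxn1, sulfiredoxin, by -0.42 ± 0.06 (adjusted p = 0.000202, lower in 13 of 14) and Gsta1, a glutathione transferase, by -0.44 ± 0.08 (lower in 12 of 14). Txnrd1, thioredoxin reductase, and Gclc, the catalytic subunit for glutathione synthesis, differed by -0.30 and -0.26. Of the 2 higher members, Nfe2l2 encodes NRF2 itself (0.28) and Gpx3 is a secreted glutathione peroxidase (0.19).

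Lists of DNA replication and of ribosomal proteins held lower genes. Of 32 DNA replication genes 12 were lower and none higher (median -0.08). The count was 5 without the Cytokine 2h, 8h or 72h pair, 6 without 1h and 7 without 0h or 60h. At 24, 36 and 48 h of cytokine 15, 16 and 26 of the 32 lay above 0 (medians -0.01, 0.005 and 0.09). In the other groups the median was below 0. Of 30 mitosis genes 3 were lower and none higher, near the 9.43% of all genes. Among the replication genes, Mcm3, a subunit of the replicative helicase, averaged 9.50 in replicate 2 and 9.73 in replicate 1 (-0.23 ± 0.04, adjusted p = 0.00214), with Gins1 at -0.28 and Mcm10 at -0.20. Of 62 listed cytosolic ribosomal proteins 24 were measured, and of these 9 were lower and none higher (median -0.11). Their median was 0.06 in Control 0h, -0.03 in Control 1h and -0.10 in Cytokine 0h, and below 0 in every exposed group. In the 3 unexposed groups none was called in either direction (limma), where 0.512% of all genes were higher and 0.0965% lower. Rplp0, of the ribosomal stalk, had 12.61, 12.81 and 12.92 in replicate 2 and 12.91, 13.09 and 13.21 in replicate 1, with ranges that met only at their edges (-0.27 ± 0.04, adjusted p = 0.000209, lower in 14 of 14). Ribosomal protein genes have many near-identical copies, which the probe sets may not tell apart. Of 32 ribosome biogenesis genes 7 were lower and none higher, with 4 lower without the Cytokine 12h pair. Of 40 genes of oxidative phosphorylation 7 were lower and 3 higher, beside 9.43% of all genes lower and 8.57% higher.

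Txnip, a thioredoxin inhibitor raised by glucose, had 10.58, 11.22 and 12.39 in replicate 2 and 11.11, 11.57 and 12.25 in replicate 1 (-0.33 ± 0.08, adjusted p = 0.00962, lower in 12 of 14). With Pklr (-0.21), Arrdc4 (-0.16) and Tkt (-0.15), 4 of 9 measured glucose-responsive genes were lower and none higher, where 9.43% of all genes were lower. Slc1a2, a glutamate transporter, had 7.20, 7.48 and 7.75 in replicate 2 and 7.53, 7.97 and 8.28 in replicate 1, and was lower in 14 of 14 groups (-0.44 ± 0.05, adjusted p = 1.72e-05). Banf1, a chromatin-binding factor of the nuclear envelope, was lower in 14 of 14 (-0.46 ± 0.04, adjusted p = 3.8e-06). The other leading lower genes outside these lists were Snrpe-ps1, a pseudogene of a spliceosome subunit that could share probes with its parent (-0.55), Apol11a (-0.54), Fam98b (-0.52), Or52ad1, an olfactory receptor (-0.50), Lsm6 (-0.49), Selenoh (-0.44) and Plaat3 (-0.44).

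**Figure D3:**
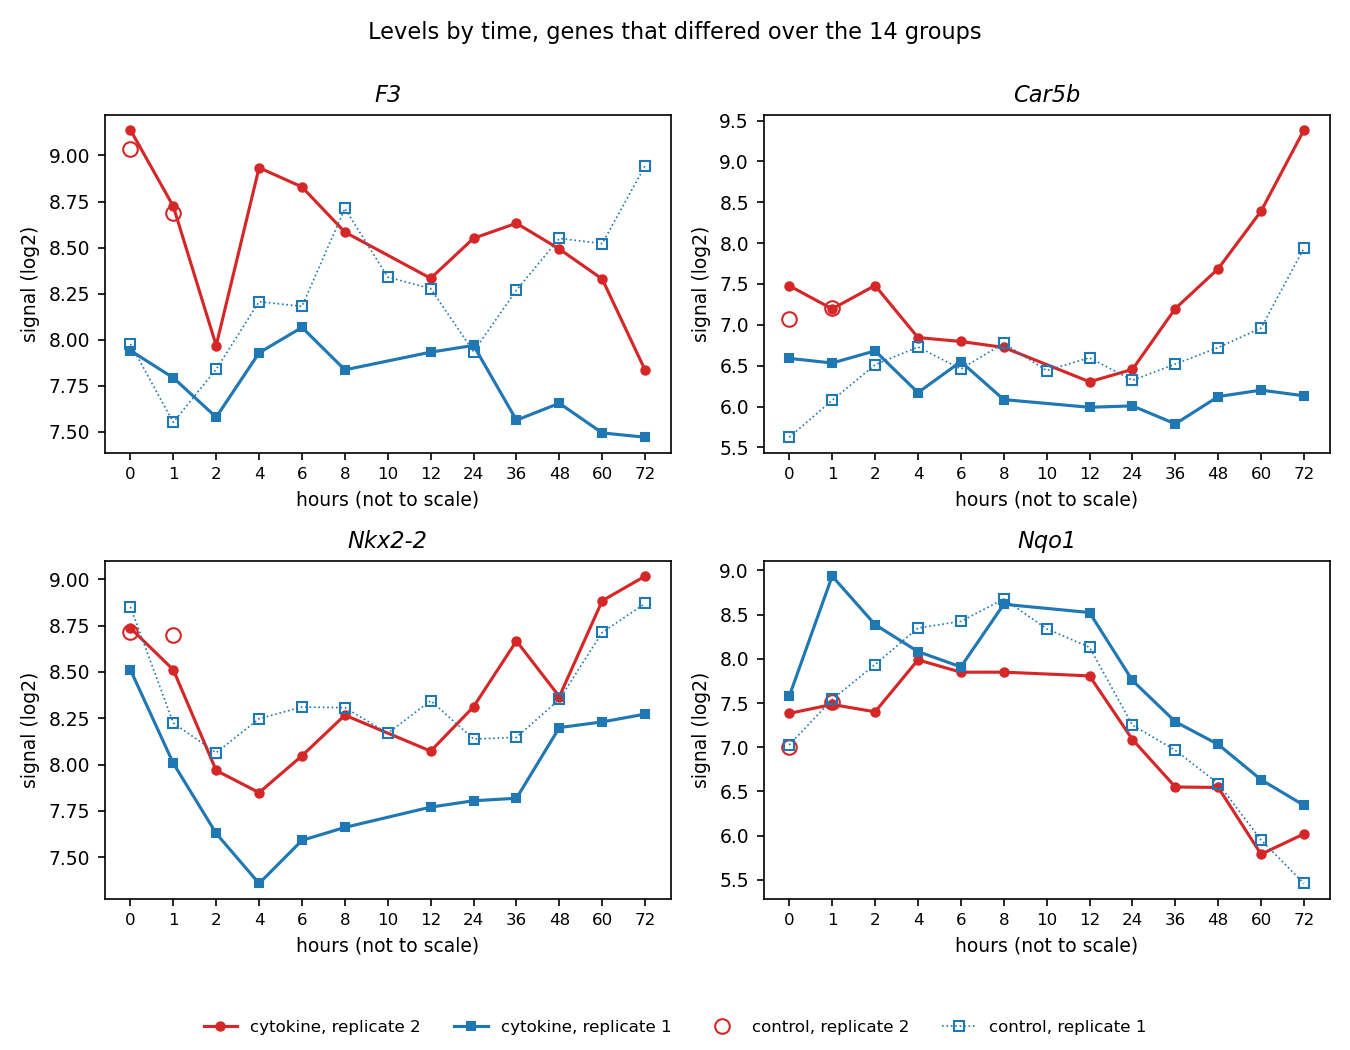
Log2 signal by hour in replicate 2 (red) and replicate 1 (blue), with filled symbols for cytokine and open symbols for control, which after 1 h is replicate 1 alone. Replicate 2 lies above replicate 1 in all 14 groups for F3 and Car5b and in 13 for Nkx2-2, and below it in all 14 for Nqo1.

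Part of the interferon targets were lower in replicate 2. Over the 14 groups 12 of 48 targets were lower and none higher, with a median of -0.20, where 9.43% of all genes were lower. Leaving out 1 pair gave 10 to 22 lower, with 22 without the Cytokine 4h pair, where 32 of the 48 lay above 0. In a fit that left the group out of account 1 was lower. Without the 4h and 6h pairs 26 were lower, but these pairs were left out because they differed from the others. In the 3 unexposed groups the median was 0.05, and none was called in either direction (limma). There 0.512% of all genes were called higher and 0.0965% lower. Irf1 was lower in 14 of 14 groups (-0.48 ± 0.06, adjusted p = 9.04e-05). In Control 0h, Control 1h and Cytokine 0h it was at 6.64, 6.67 and 6.69 in replicate 2, against 6.86, 7.02 and 6.87 in replicate 1. At 2 h of cytokine it reached 11.47 in replicate 2 and 11.74 in replicate 1, and at 72 h it stood at 8.45 in replicate 2 and 9.39 in replicate 1. Socs1, a feedback inhibitor of JAK kinases (-0.37), and Dtx3l, a ubiquitin ligase (-0.39), were each lower in 14 of 14 groups.

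Gbp1 and Gbp2, interferon-induced GTPases, differed by -0.49 ± 0.12 (adjusted p = 0.00753) and -0.47 ± 0.12 (adjusted p = 0.0104). Gbp2 was at 10.70 in replicate 2 and 10.45 in replicate 1 at 4 h of cytokine, and at 7.02 in replicate 2 and 8.61 in replicate 1 at 72 h. Cxcl10, a chemokine that both cytokines raise, had 0.03 ± 0.08 (adjusted p = 0.843). Tnfsf10, the death ligand TRAIL, was lower (-0.41, adjusted p = 0.00406). In the NF-kB list 5 of 30 were lower and none higher, where 9.43% of all genes were lower. Lcn2 was at -0.32 and Cd40 at -0.24. Nfkbia, the inhibitor of NF-kB, had 0.05 (adjusted p = 0.398) and the chemokine Ccl2 had 0.01 (adjusted p = 0.938).

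In the 3 unexposed groups taken apart, 85 genes were higher in replicate 2 (0.512%) and 16 lower (0.0965%). Of them 74 and 11 were also called in that direction over the 14 groups, which include these 3. The standard errors and p-values here rest on the spread of all 14 pairs, 11 of them exposed to cytokine, and not on the unexposed pairs alone. F3 was at 9.03, 8.69 and 9.14 in replicate 2 in Control 0h, Control 1h and Cytokine 0h, against 7.98, 7.55 and 7.94 in replicate 1, with no overlap (1.13 ± 0.13, 2.19-fold, adjusted p = 0.00436). Tmem100 was at 8.10, 8.09 and 8.21 in replicate 2, against 6.91, 6.59 and 7.53 in replicate 1 (1.12 ± 0.18, adjusted p = 0.0189). These were the 2 called genes at 2-fold or more.

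The next highest were Swt1 (0.94), Aadat (0.87), Yipf4 (0.83), Tnfrsf22, a decoy receptor for TRAIL in mouse (0.79), Slc25a32, a mitochondrial folate carrier (0.79), and Tob1, an antiproliferative factor (0.75). The lowest were Tmem140 (-0.53), Cldn15 (-0.53), Foxd1 (-0.53), Slc1a2 (-0.52), Slfn5 (-0.51), H2bc8, a histone (-0.50), Lbx2 (-0.50) and Phospho1 (-0.48). Of the 29 beta cell genes none was called here in either direction (limma), with a median of 0.20. Over all genes 0.512% were higher and 0.0965% lower. These counts rest on few arrays: without the Control 0h pair or without the Control 1h pair none was called (limma, 2144 and 2097 at an unadjusted p under 0.05), without the Cytokine 0h pair 20 were higher and 1 lower, and in a fit of the 6 unexposed arrays alone 2 were higher and 0 lower.

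The replicate difference of the 11 exposed groups was set against that of the 3 unexposed ones. No gene was called (limma, 0.0%, smallest adjusted p = 0.301), with 1138 at an unadjusted p under 0.05, and array weights called 2 lower. F3 had -0.41 ± 0.15 (adjusted p = 0.667) and Irf1 -0.30 ± 0.13 (adjusted p = 0.715). The difference at 24 to 72 h was then set against that at 1, 2 and 4 h. It called 1 gene (0.00603%), RT1-CE5, a class I histocompatibility gene (-0.97, adjusted p = 0.0381). RT1-CE5 was at 8.20, 8.54 and 9.36 in replicate 2 at 1, 2 and 4 h, against 7.61, 8.25 and 8.64 in replicate 1, and at 9.81, 9.85, 9.76, 9.66 and 9.36 in replicate 2 from 24 to 72 h, against 10.12, 10.14, 10.19, 10.21 and 9.96 in replicate 1. It was not called without the Cytokine 4h pair, without any 1 of several other pairs, or after centring the arrays on their medians. Class I genes have close copies, so its probe set may read several of them.

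Some interferon genes were higher in replicate 2 at 4 and 6 h and lower from 24 to 72 h. The 48 interferon targets as a list had a median above 0 at 4 h alone among the exposed groups. At 1, 2, 4, 6, 8 and 12 h it was -0.05, -0.15, 0.28, -0.02, -0.24 and -0.38. Mx2, an interferon-induced dynamin-like GTPase, was at 10.81 and 11.46 in replicate 2 at 4 and 6 h, against 9.53 and 10.96 in replicate 1. At 24, 36, 48, 60 and 72 h it was at 10.60, 9.14, 7.79, 7.54 and 6.68 in replicate 2, against 11.29, 10.50, 9.49, 8.94 and 8.52 in replicate 1. Over those 5 late pairs it differed by -1.40 ± 0.20 (adjusted p = 0.00176). For Mx2 replicate 2 was thus ahead in the 4 and 6 h pairs and behind in every late pair, and Nos2 followed the same order. Nos2 was at 9.89 and 10.09 in replicate 2 at 4 and 6 h, against 8.71 and 9.55 in replicate 1, and at 8.44, 7.10, 7.27, 6.86 and 6.82 from 24 to 72 h in replicate 2, against 9.51, 8.36, 8.02, 7.76 and 7.49 in replicate 1 (-0.93 ± 0.21, adjusted p = 0.0234). In Control 1h, with no cytokine, Nos2 was at 5.63 in replicate 2 and 6.52 in replicate 1.

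**Figure D4:**
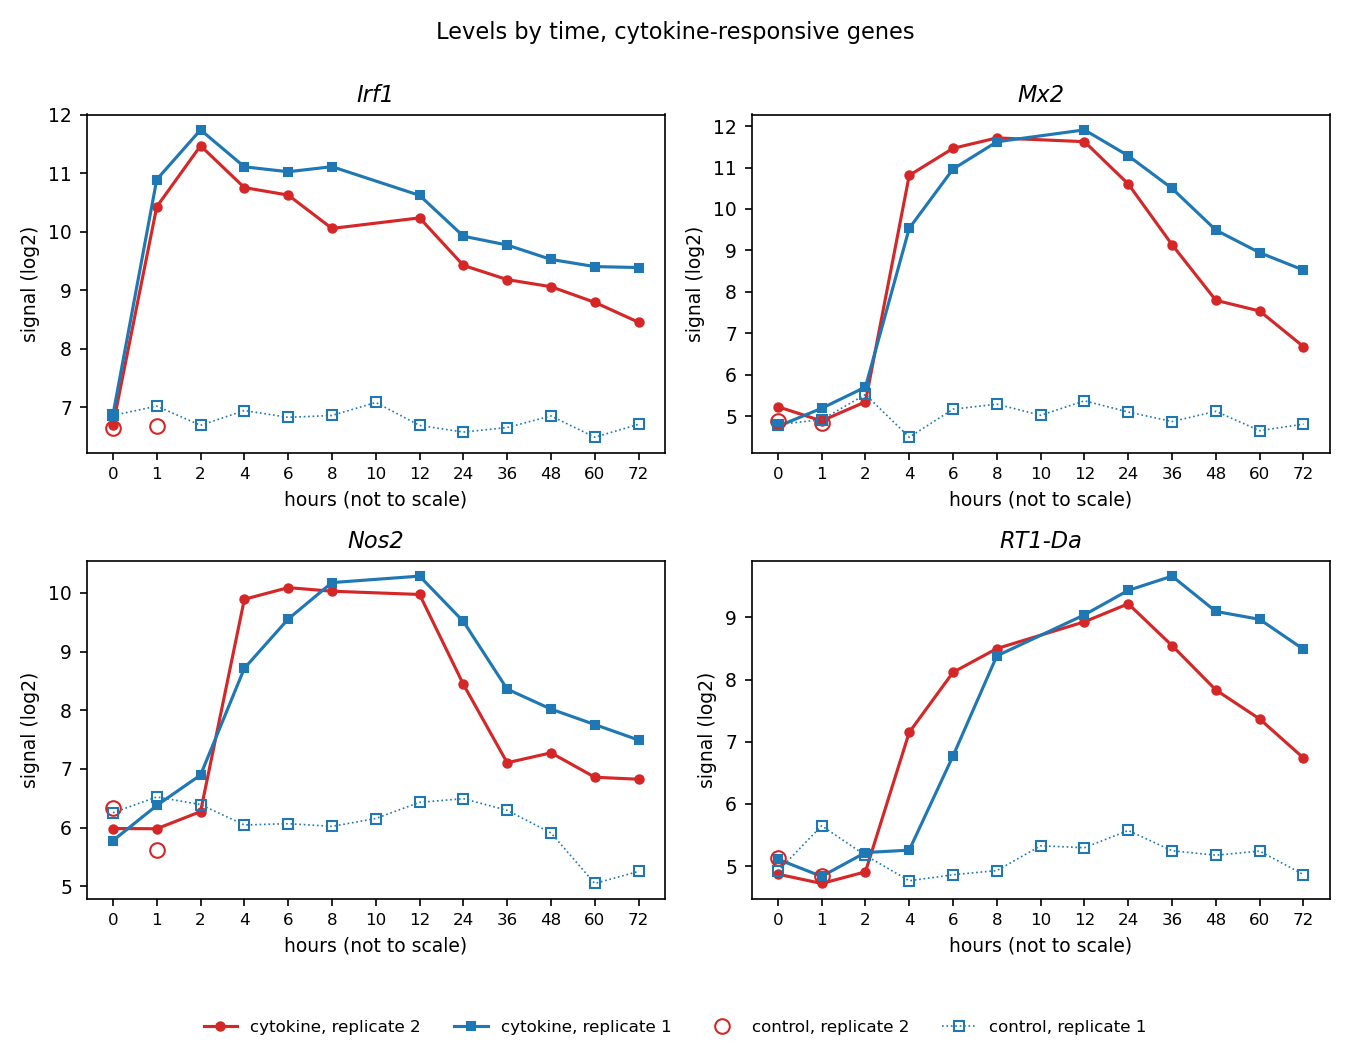
Log2 signal by hour in replicate 2 (red) and replicate 1 (blue), with filled symbols for cytokine and open symbols for control, which after 1 h is replicate 1 alone. Irf1 is lower in replicate 2 in all 14 groups, while Mx2, Nos2 and RT1-Da are higher in replicate 2 at 4 and 6 h of cytokine and lower from 24 to 72 h.

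The late comparison was chosen after this course had been seen. It called 326 genes higher in replicate 2 (1.97%) and 357 lower (2.15%), of which 3 and 9 reached 2-fold. Of 48 interferon targets 28 were lower and none higher, with a median of -0.46. The count was 15 without the Cytokine 36h pair and 16 without the 60h or 72h pair. At 24, 36, 48, 60 and 72 h, 43, 43, 45, 47 and 45 of the 48 lay below 0. After Mx2 the lowest were Mx1 (-1.22 ± 0.25, adjusted p = 0.0133), Gbp5 (-1.21 ± 0.15, adjusted p = 0.000922), RT1-Da, a class II alpha chain (-1.19 ± 0.29, adjusted p = 0.0291), Usp18, which removes ISG15 and damps interferon signalling (-1.15 ± 0.17, adjusted p = 0.00176), Samd9l (-1.12), Apol11a (-1.08) and Oasl2 (-1.08). Gbp2 differed by -0.96 ± 0.14 (adjusted p = 0.0024).

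Over the 14 groups 4 of 21 class I antigen processing genes and 1 of 14 class II genes were lower and none higher. There 9.43% of all genes were lower. Late, 12 of the 21 class I genes were lower and none higher (median -0.43), where 2.15% of all genes were lower. The count was 5 without the Cytokine 60h pair and 6 without the 36h or 72h pair. Psmb10, an immunoproteasome subunit, averaged 8.74 ± 0.55 in replicate 2 and 9.56 ± 0.32 in replicate 1 (SD, n = 5 each), a difference of -0.81 ± 0.13 (limma adjusted p = 0.00292). Tap1, the peptide transporter, had -0.56 and RT1-A2 -0.50. Of 14 class II genes 3 were lower late and none higher, with 0 lower without the 60h pair and 1 without 36h. Cd74, the class II invariant chain, averaged 10.48 ± 0.62 in replicate 2 and 11.33 ± 0.24 in replicate 1 (SD, n = 5 each), which did not pass in limma (-0.85 ± 0.29, adjusted p = 0.115). In the NF-kB list 7 of 30 were lower late and in the antioxidant list 8 of 36, and none was higher in either. Without the Cytokine 36h, 60h or 72h pair these counts were 1, 2 and 3 for NF-kB. For the antioxidant list they were 1, 3 and 2, and 5 without 12h, 24h or 48h. Of 24 cytosolic ribosomal proteins 5 were lower late and none higher, and leaving out 1 pair gave 1 to 8 lower.

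Late genes higher in replicate 2 had other roles. Car5b led (1.77 ± 0.25, 3.42-fold, adjusted p = 0.0015), before Serpina1 (1.21 ± 0.16, adjusted p = 0.00118), Cnnm1 (1.13), P2ry1 (1.00 ± 0.12), Mertk, a receptor kinase for uptake of dying cells (0.95 ± 0.10), Gsto2, a glutathione transferase (0.92), Cltrn, collectrin, a membrane protein of beta cells (0.91), and Faim2 (0.88). Of 29 beta cell genes 5 were higher late and none lower, where 1.97% of all genes were higher. The count was 3 without the 36h or 60h pair. Other lists of mostly bright genes had like counts: 5 of 28 ion channels, 5 of 25 fatty acid genes and 4 of 19 cholesterol genes were higher late, and none was lower. Leaving out 1 pair took these counts as low as 2, 2 and 0. Nkx2-2 averaged 8.65 ± 0.31 in replicate 2 and 8.07 ± 0.23 in replicate 1 (SD, n = 5 each; 0.58 ± 0.10, limma adjusted p = 0.00435). The late counts fell to 89 higher and 108 lower without the Cytokine 60h pair, to 118 and 120 without 72h, to 143 and 131 without 36h and to 171 and 201 without 48h.

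**Figure D5:**
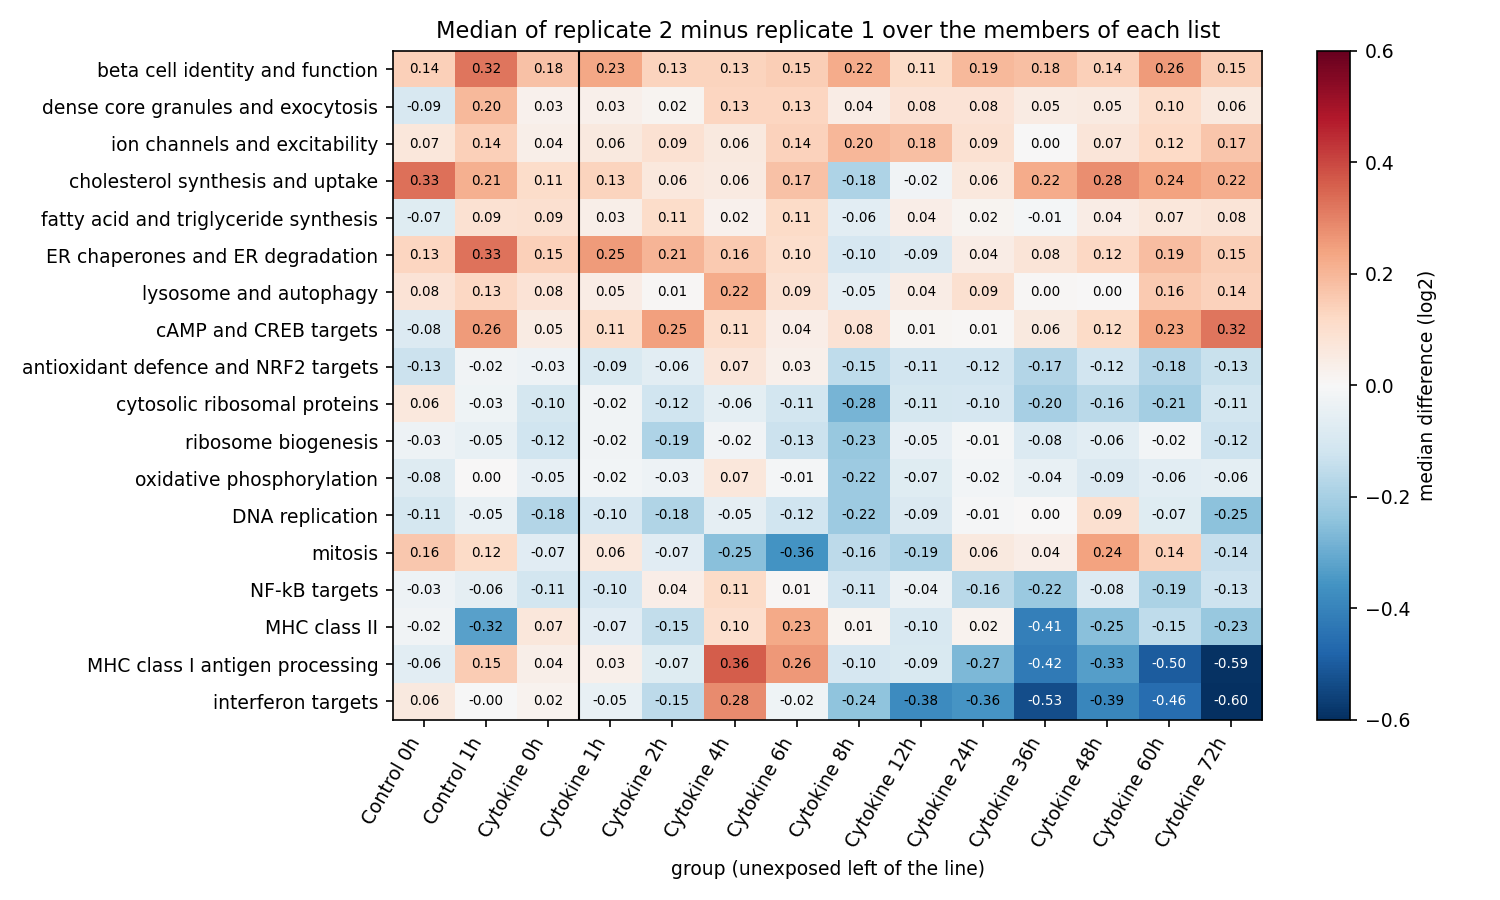
Median over list members of replicate 2 minus replicate 1 (log2) for 18 gene lists in the 14 groups, with the 3 unexposed groups left of the line. The beta cell row is positive in all 14 groups. The interferon row is at -0.05, -0.15, 0.28 and -0.02 at 1, 2, 4 and 6 h of cytokine and at -0.60 at 72 h.

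The late difference was also set against that of the 4 and 6 h pairs, again a choice made after the course was seen. It called 150 genes higher (0.904%) and 187 lower (1.13%). Of the 48 interferon targets 19 were among the lower, of 21 class I genes 13 and of 14 class II genes 3. Mx1 was the lowest (-2.87 ± 0.29, adjusted p = 0.000341): at 4 h it was at 7.59 in replicate 2 and 5.39 in replicate 1, and at 36 h at 5.44 in replicate 2 and 7.24 in replicate 1. RT1-Da (-2.81), Cd74 (-2.40), Mx2 (-2.29), Usp18 (-2.12), Ifit1 (-1.91), Oasl2 (-1.87) and RT1-DMb (-1.80) came next. Nos2 had -1.78 ± 0.26 (adjusted p = 0.0038). Without the Cytokine 4h pair this comparison called 0 higher and 7 lower, and without the 6h pair 66 and 83.

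Genes of mitosis lay mostly below 0 in some pairs and mostly above 0 in others. Of 30 mitosis genes 25 lay below 0 at 4 h and 28 at 6 h, with medians of -0.25 and -0.36. At 0, 12 and 72 h of cytokine 24, 23 and 24 lay below 0 (medians -0.07, -0.19 and -0.14), and at 2 and 8 h 18 each. At 48 h 26 lay above 0 (median 0.24) and at 60 h 24 (median 0.14). In Control 0h 22 lay above 0, in Control 1h and Cytokine 1h 21 each, and at 24 and 36 h 19 each. Cenpf, a kinetochore protein, was at 7.72 and 7.54 in replicate 2 at 4 and 6 h, against 9.23 and 9.37 in replicate 1. The highest of the late minus 4 and 6 h contrast were Cenpe, a kinetochore motor (2.06), Cenpf (2.00), Plcxd3 (1.92), Kif20b, a mitotic kinesin (1.84), Knl1, a kinetochore scaffold (1.75), Zfp748 (1.68), Or1j20 (1.67) and Atrx (1.64). Mki67, the proliferation marker Ki-67, had 1.31 (adjusted p = 0.00814). The part of these 4 arrays' own quality in the lead of Mx2, Nos2 and RT1-Da at 4 and 6 h was not tested.

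The late controls are replicate 1 alone, so their levels are given side by side with no test. From 24 to 72 h Gbp2 averaged 8.13 ± 1.01 in replicate 2 and 9.10 ± 0.61 in replicate 1 under cytokine, against 5.43 ± 0.24 in control (SD, n = 5 each). Nos2 averaged 7.30 ± 0.66 in replicate 2 and 8.23 ± 0.79 in replicate 1, against 5.80 ± 0.63 in control. Npy averaged 9.13 ± 0.05 in replicate 2 and 8.35 ± 0.18 in replicate 1, against 10.16 ± 0.19 in control. For these 3 genes both cytokine means lay on the same side of the control mean. Car5b averaged 7.82 ± 1.12 in replicate 2 and 6.05 ± 0.16 in replicate 1, against 6.89 ± 0.63 in control, so the cytokine means lay on opposite sides of it. F3 averaged 8.37 ± 0.32 in replicate 2 and 7.63 ± 0.20 in replicate 1, against 8.44 ± 0.37 in control. Nqo1 averaged 6.40 ± 0.51 in replicate 2 and 7.01 ± 0.55 in replicate 1, against 6.44 ± 0.73 in control. A replicate 2 cytokine array and a replicate 1 control array differ in both condition and replicate number, which cannot be told apart here.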

How the data were processed

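Gene expression was measured with Affymetrix Rat ST arrays in 40 samples of INS-1E cells, and the 28 arrays of the 14 groups with both replicate numbers were used. The deposited table holds log2 signal for 19239 probe sets, with values from 2.27 to 14.46. How the authors normalized and summarised these values, and on which genome build, is not given in the sources used here. The platform annotation named 1 gene for 16592 probe sets and left 2647 unnamed, and 3326 symbols were updated through the RefSeq gene table (GRCr8, names only). Where 5 symbols had several probe sets, the brightest was kept, giving 16587 genes. No 2 arrays were identical, and correlations between arrays ran from 0.971 to 0.996.

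The values were fitted as deposited with limma 3.58.1 (lmFit and eBayes, R 4.3.3), with the group as a block and the replicate number as the factor, and p-values were adjusted over all 16587 genes by the Benjamini-Hochberg method. The other contrasts let the replicate difference vary between the unexposed groups and periods of exposure. The fit over 14 groups was tested on simulated data with independent noise in each array. That test cannot speak to arrays that share a series of cultures, and the other contrasts were not tested so. Alternatives changed the scaling, the filter on dim genes, the moderation, the array weights, the block and the groups used. The members and lists were chosen with earlier results of these data known.

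Genes were named by rule: the 15 largest differences in each direction among called genes of 1 sign in at least 12 groups, up to 3 genes of smallest p per list, the 8 largest called in each direction of the other contrasts, and a list of always named genes. Cdkn1a, Cplx1, Dnajb9, Gins1, Glp1r, Gpx3, Kcnj11, Nfe2l2 and Tkt in the report, and any gene of the closing section outside the rule, were chosen after their values were seen.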

Additional observations from a re-analysis of the deposited data

Results flagged for a closer look

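The differences between periods below were flagged because the test of the difference itself passed in limma. For RT1-CE5 the replicate difference at 24 to 72 h was lower than that at 1 to 4 h (-0.968, adjusted p = 0.0381). Its adjusted p ran from 0.00258 to 0.230 over the alternatives, and it missed the threshold without the Control 0h, Control 1h, or Cytokine 0h, 1h, 4h, 48h, 60h or 72h pair.

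Against the 4 and 6 h pairs, the replicate difference at 24 to 72 h was lower for Mx1 (-2.87), RT1-Da (-2.81), Cd74 (-2.40), Mx2 (-2.29), Usp18 (-2.12), Ifit1 (-1.91), Oasl2 (-1.87) and RT1-DMb (-1.80), which are interferon or antigen presentation genes. It was higher for Cenpe (2.06), Cenpf (2.00), Kif20b (1.84) and Knl1 (1.75), genes of mitosis, and for Plcxd3 (1.92), Zfp748 (1.68), Or1j20 (1.67) and Atrx (1.64). The comparison was chosen after the time course was seen, and 14 of these 16 genes lost the call when 1 pair or another was left out. The RT1 genes have close copies that a probe set may not tell apart.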

How the results depend on the processing

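The comparison is itself paired by group, with the group as the block. Beyond it, no paired analysis was possible because the replicate number is the factor compared. Over 14 groups, leaving out 1 group gave 1169 to 1563 genes higher in replicate 2 and 1222 to 1742 lower, and dropping the group block gave 577 and 746. There, 1 of 48 interferon targets was called lower and 7 of 29 beta cell genes higher, with 1 DNA replication and 7 antioxidant genes lower and 2 cholesterol, 3 endoplasmic reticulum, 1 ion channel and 0 fatty acid genes higher. No named gene reversed, and of 151 called over 14 groups 84 lost the call under some processing and 17 when 1 group was left out.

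In the 3 unexposed groups the higher and lower counts were 41 and 12 after quantile normalization, 200 and 41 without the dimmest genes, 219 and 32 with trend and robust moderation, 93 and 27 with array weights, 2 and 0 from the 6 unexposed arrays alone, 20 and 1 from the control groups only, and 173 and 32 without the Cytokine 4h and 6h pairs. Leaving out 1 group gave 0 to 113 higher and 0 to 22 lower. For exposed minus unexposed groups, array weights gave 2 lower and leaving out 1 group 0 to 1. For 24 to 72 h minus 1 to 4 h, higher and lower counts were 1 and 1 (quantile), 0 and 0 (centred arrays), 1 and 2 (dimmest genes left out), 2 and 9 (trend and robust), 1 and 3 (weights) and 0 and 0 (no 4h and 6h pairs), with 0 to 2 and 0 to 5 when 1 group was left out.

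At 24 to 72 h, the counts were 519 and 489 without the dimmest genes, 496 and 499 with trend and robust moderation and 649 and 764 with array weights, with 89 to 360 and 108 to 416 when 1 group was left out. Against 4 and 6 h they were 242 and 305, and 229 and 315, under the first 2 of these settings, with 0 to 253 and 7 to 268 when 1 group was left out. The cause of these shifts was not tested. Both last comparisons, and the fits without the 4h and 6h pairs, were chosen after seeing the data. With 1 array per replicate in each group, a difference within a single group has no test.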

Other observations

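Counts over the 14 groups in lists not described above stand beside a background of 8.57% of all genes higher and 9.43% lower in replicate 2. Among 31 glycolysis and hypoxia genes 3 were higher and 5 lower, with the glycolytic enzymes Pfkl at -0.28 and Tpi1 at -0.22 and the hypoxia-responsive Ankrd37 at 0.28. Among 28 genes of the TCA cycle and mitochondrial shuttles 1 was higher and 4 lower, and among 23 genes of fatty acid oxidation 1 was higher and 3 lower. Of 33 ATF4 targets 3 were higher and 2 lower: Phgdh, which starts serine synthesis, had -0.34 and Vldlr, a lipoprotein receptor, had 0.47. Of 17 aminoacyl-tRNA synthetases 2 were lower (Kars1 -0.25, Vars1 -0.15) and none higher, and of 17 cytosolic heat shock proteins 3 were higher and 2 lower.

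Of 35 chemokines and cytokines 4 were lower and none higher, with Lif at -0.30 and Cxcl16 at -0.26. Of 21 genes of nitric oxide and arginine metabolism 2 were higher and 4 lower: Slc7a2, a cationic amino acid transporter, had 0.31 and Qdpr, which regenerates tetrahydrobiopterin, had -0.37. Among 39 matrix and adhesion genes 3 were higher, fibronectin Fn1 among them (0.29), and 4 lower. Among 37 cytoskeleton, SRF and YAP targets 1 was higher and 6 lower, among 42 splicing regulators 4 were higher and 7 lower, and among 17 clock genes 1, Nfil3, was higher and none lower. Of 15 metallothioneins and zinc transporters 2 were higher and none lower, and of 15 other islet hormones and neuropeptides 2 were higher (Npy and Gcg) and 1, Sst, lower (-0.17).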
